A study of Mus musculus with 17 samples.

Results

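Spp1, Thbs1, Fn1 and Spon1 are 4 genes for secreted proteins of the extracellular matrix, and they were taken by their symbols from the 10207 rows with a gene symbol in a table of raw counts. Spp1 encodes osteopontin, Thbs1 thrombospondin-1, Fn1 fibronectin and Spon1 F-spondin. Levels are given in CPM in 11 libraries of sorted mouse myeloid cells. CPM is the count per 1000000 counts of a library, totaled over the genes that passed a filter on low counts. The totals were TMM-scaled, a correction for differences in composition between libraries.

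Matricellular proteins are secreted into the matrix to signal to cells more than to bear load. Osteopontin and thrombospondin-1 are textbook members, F-spondin carries thrombospondin repeats, and fibronectin is a structural adhesive glycoprotein to which many of the others bind. Their receptors include integrins, CD44 for osteopontin and CD47 for thrombospondin-1. Osteopontin is also a major bone matrix protein, platelets store thrombospondin-1, and macrophages in wounds and tumors are known sources of osteopontin and fibronectin.

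All cells came from female BALB/c mice. Tumor-associated macrophages (TAM, 3 libraries) were CD11b+ Gr1- F4/80+ cells of a mammary fat pad tumor grown from 100000 injected 4T1-luc cells, a mouse mammary carcinoma line that expresses luciferase, and taken at a size of 1 cm. BMDM_T (4 libraries) were CD11b+ Gr1+ F4/80low cells from the leg bones of mice with such a tumor. BMDM_H (4 libraries, replicates 1 to 4) were cells of the same gate from mice without a tumor. By their labels, TAM and BMDM_T mice were 8 weeks old and BMDM_H mice 12 weeks, so tumor and label age cannot be told apart between the marrow groups. The design text of the series speaks of age-matched mice without a tumor, which goes against these labels. Tumors were digested with collagenase, whereas marrow was flushed and its red cells lysed. Whether mice were pooled is not given, nor is it stated that each replicate is a different mouse. The p-values therefore speak only of the variation among these libraries, part of which may be technical.

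Library totals were 1748338 to 3747929 counts in TAM, 931278 to 1218977 in BMDM_T and 387940 to 1286844 in BMDM_H. The labels call both marrow groups monocytes, yet 10 neutrophil markers summed to 157102 to 189317 CPM in BMDM_T and 130838 to 202642 CPM in BMDM_H, against 303 to 525 CPM in TAM. Monocyte markers in marrow were far lower, summing to 1438 to 1948 CPM in BMDM_T and 2297 to 3875 CPM in BMDM_H. The 11 macrophage markers matched summed to 60568 to 74784 CPM in TAM, against 2568 to 3158 CPM in BMDM_T and 3226 to 4101 CPM in BMDM_H, as the TAM label would have it. Another 6 libraries of the series, of a second batch, were not analysed here because their rows are not in the order of the symbols.

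**Figure D1:**
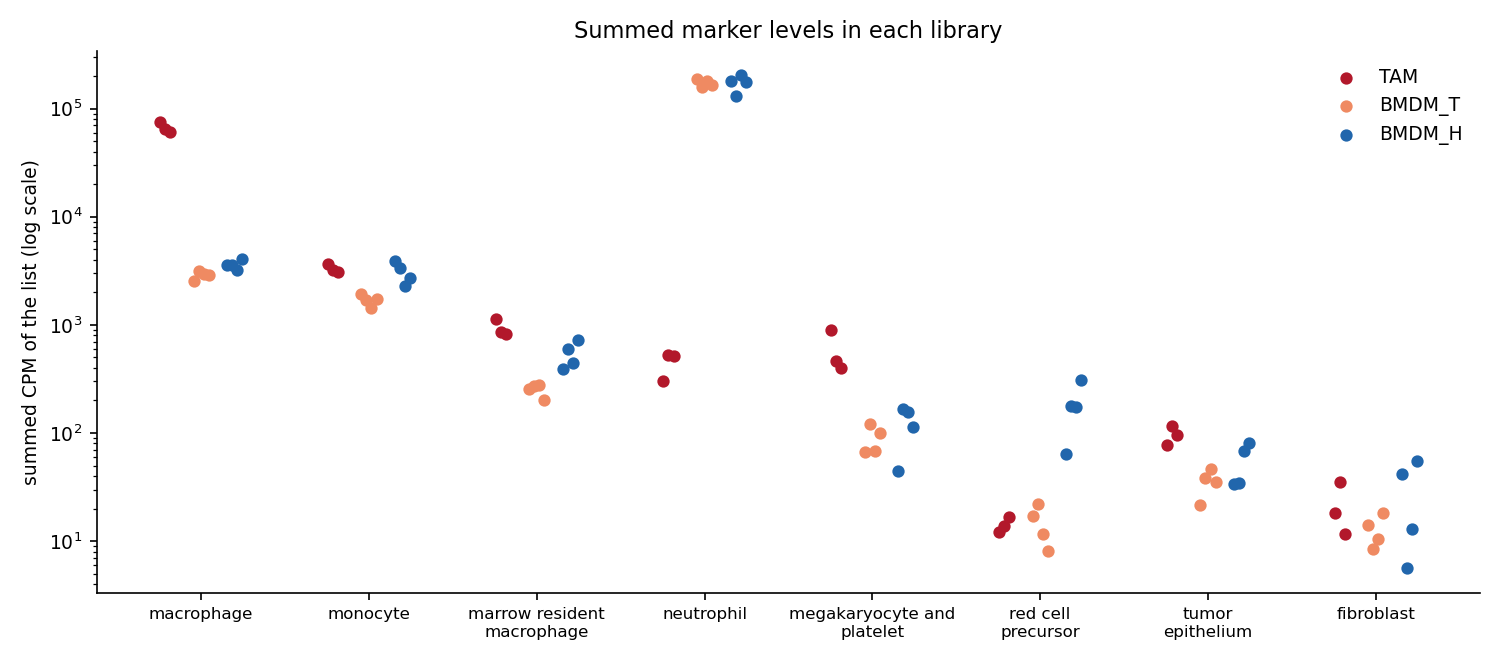
Summed CPM (log scale) of 8 marker lists in each of the 11 libraries, with 1 point per library, colored by group. Neutrophil markers sum to 157102 to 189317 CPM in BMDM_T and 130838 to 202642 CPM in BMDM_H, while macrophage markers stand highest in TAM. The megakaryocyte and platelet sum in TAM is nearly all from Pf4, a gene that some macrophages also express.

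The upstream sequence of Spp1 is shown because it was the only one of the 4 genes with a window in the set of promoter windows used. Spp1 had 2 windows there, and the one with the lower start is printed. The window is RefSeq's for GRCm38.p6 (mm10), chr5:104434861-104435110, plus strand, the 250 bases before the annotated start. Capitals mark, from left to right, the reverse complement of a RUNX-type motif (TGTGGT, bases -128 to -123 from the start), a PU.1-type motif (GAGGAA, -113 to -108) and the reverse complement of a CCAAT box (-46 to -42).
Spp1 upstream: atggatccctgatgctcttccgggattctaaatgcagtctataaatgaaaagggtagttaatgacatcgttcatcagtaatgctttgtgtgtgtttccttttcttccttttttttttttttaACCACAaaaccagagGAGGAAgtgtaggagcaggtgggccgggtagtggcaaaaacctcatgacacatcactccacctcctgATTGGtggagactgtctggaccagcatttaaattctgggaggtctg
RUNX and PU.1 are transcription factors of myeloid cells, and CCAAT boxes are common promoter elements. Searched on both strands, the letters TGTGGT stood in 14.0% of 32851 mouse windows of the same length, GAGGAA in 23.3% and CCAAT in 33.8%. A TATAAA stood at -211 to -206 (12.4% of windows) and a CANNTG E-box at -98 to -93 (66.2%). The AP-1 letters TGANTCA had no match in this window, against 6.75% of windows with one. These 5 matches do not overlap each other, and they are letters in a sequence, not sites shown to be bound.

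GENCODE M21 annotates all 4 as protein-coding in mm10. Spp1 is on the plus strand of chromosome 5 (104435118 to 104441050), Thbs1 on the plus strand of chromosome 2 (118111876 to 118127133), Fn1 on the minus strand of chromosome 1 (71585520 to 71653200) and Spon1 on the plus strand of chromosome 7 (113765998 to 114043370). A short unclassified model overlaps the start of Spp1 on its own strand, and antisense models overlap Thbs1 and the start of Fn1. None covers the 3' end, where these 3'-end libraries place their reads.

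All 4 genes were higher in TAM than in BMDM_T, by 6.96-fold for Fn1, 10.4-fold for Thbs1, 27.6-fold for Spp1 and, as a ratio of counts, 169-fold for Spon1. Between the marrow groups Thbs1 and Fn1 fell in BMDM_T, by 6.88-fold and 1.96-fold, and Spp1 and Spon1 did not pass the test. TAM against BMDM_H gave 3 higher genes, and Thbs1 was not called. In TAM against BMDM_T 58.9% of the 7518 genes tested were called, 30.1% higher and 28.7% lower, so a call is common there. In BMDM_T against BMDM_H 4.82% were called, 2.82% higher and 2% lower, and 2 of the 4 genes were among the lower ones. TAM against BMDM_H called 56.3%, 28% higher and 28.3% lower. The 3 comparisons share their groups, so they are not independent of each other. In sorted bulk samples, fewer cells of a type and less RNA per cell cannot be told apart.

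**Figure D2:**
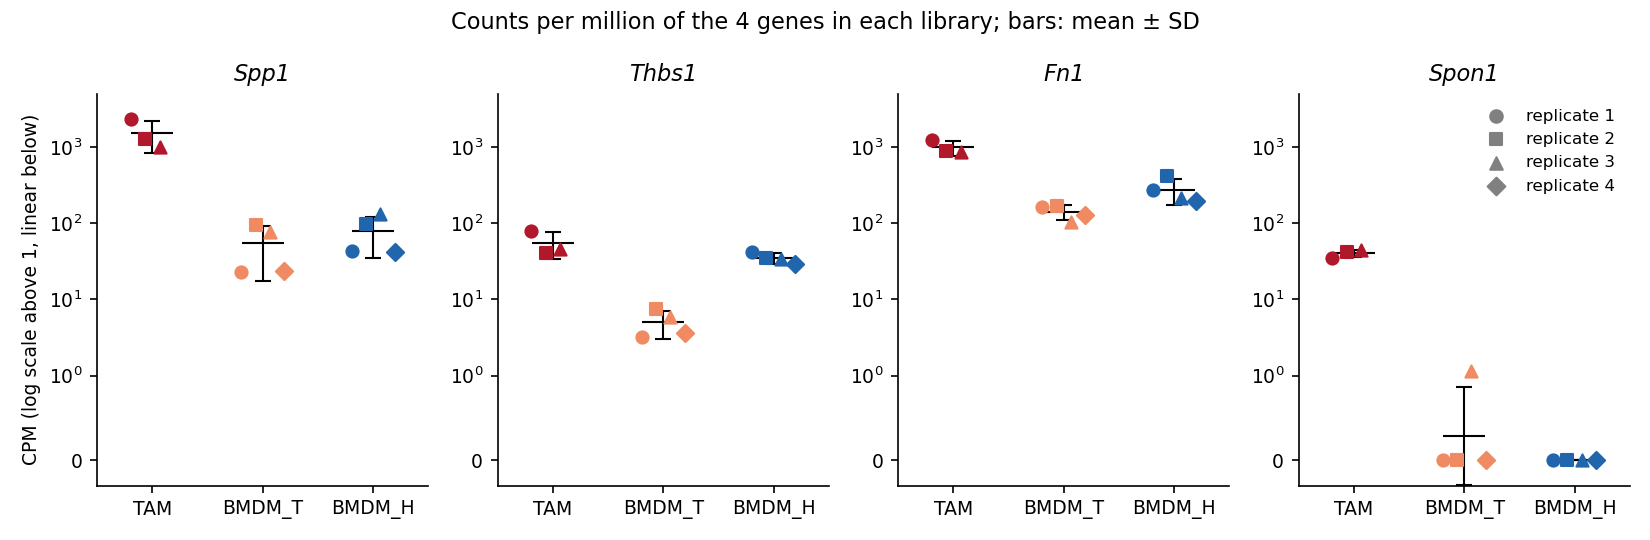
CPM of Spp1, Thbs1, Fn1 and Spon1 in each library of TAM, BMDM_T and BMDM_H (log scale above 1 CPM, linear below), with the marker shape giving the replicate number and bars the mean and SD. TAM stands above both marrow groups for Spp1, Fn1 and Spon1, while for Thbs1 BMDM_H reaches the lower TAM libraries and BMDM_T lies below both.

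Spp1, the ligand of αv integrins and CD44, had 2295, 1253 and 989 CPM in the TAM libraries, against 22.6, 94.1, 77.3 and 23.5 CPM in BMDM_T and 43.0, 96.5, 130 and 41.6 CPM in BMDM_H. Every TAM library stood above every marrow library, as for 30.4% of all genes tested against BMDM_T and 27.5% against BMDM_H, and the marrow groups overlapped. The mean was 1512 ± 691 CPM in TAM (SD, n = 3), against 54.4 ± 36.8 CPM in BMDM_T and 77.8 ± 43.3 CPM in BMDM_H (SD, n = 4 each). The log2 fold change of TAM over BMDM_T was 4.79 ± 0.44 SE (edgeR quasi-likelihood test, Benjamini-Hochberg adjusted p = 1.07e-08), a larger value than that of 98.5% of all genes tested. Over BMDM_H it was 4.28 ± 0.43 SE, or 19.4-fold (edgeR adjusted p = 5.53e-08).

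Spp1 did not pass between the marrow groups. The log2 difference of BMDM_T from BMDM_H was -0.51 ± 0.43 SE with a 95% interval of -1.41 to 0.39 (edgeR adjusted p = 0.602), an interval that holds both an equal and a 2-fold lower level. Spp1 was also lower in BMDM_T at each of the 4 replicate numbers, at 0.526, 0.594 and 0.563 times the BMDM_H level for numbers 1, 3 and 4 and nearly level for number 2 (94.1 CPM in BMDM_T, 96.5 CPM in BMDM_H). Spp1 was also the most variable of the 4 genes within groups. Its biological coefficient of variation, the replicate spread left after counting error, was 38.5%, against a median of 17.9% over all genes, and 98.4% of genes had a lower one. The corresponding values were 22.0% for Thbs1, 22.2% for Fn1 and 17.0% for Spon1. Spon1 had 1 count over BMDM_T and 0 over BMDM_H, so its value says little of the spread in marrow. In both marrow groups replicates 2 and 3 were high and replicates 1 and 4 low, a 4.16-fold range in BMDM_T and a 3.13-fold range in BMDM_H. The heat shock gene Hspa1a followed the same split, with 20.2 and 10.4 CPM in BMDM_T replicates 2 and 3 against 3.23 and 1.80 CPM in 1 and 4, and with 8.85 and 14.9 CPM in BMDM_H replicates 2 and 3 against 2.39 and 0 CPM in 1 and 4. These values rest on 38 counts over BMDM_T and 22 over BMDM_H. Hspa1a was singled out after its values were seen, and the share of all genes with this split is not given. Its part in the Spp1 spread was not tested.

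Since bone cells make osteopontin, their markers were summed as well. The 4 bone cell markers matched, of 8 listed, summed to 20.9 to 64.5 CPM in TAM, 14.4 to 28.0 CPM in BMDM_T and 14.9 to 19.1 CPM in BMDM_H. Both tested ones differed between TAM and BMDM_T. Dcstamp, a fusion gene of osteoclasts that macrophages can also express, was higher in TAM at 19.7 CPM against 0.499 CPM. With 126 counts over TAM and 2 over BMDM_T, it passed the filter on low counts only through TAM. A higher call was nearly fixed once Dcstamp was tested. The osteoblast factor Runx2 was lower at 3.83 CPM in TAM against 15.1 CPM in BMDM_T. The part of bone cells in the Spp1 values was not tested.

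Thbs1 encodes an inhibitor of vessel growth that can also activate latent TGF-beta. It had 78.9, 40.3 and 45.0 CPM in TAM, against 3.23, 7.56, 5.77 and 3.61 CPM in BMDM_T and 42.2, 34.6, 33.5 and 28.6 CPM in BMDM_H. BMDM_T lay below every library of the other groups, and the lowest TAM library lay below the highest BMDM_H library. The BMDM_T values rest on 3, 9, 5 and 4 counts, 21 in all, with a 95% exact Poisson interval of 13.0 to 32.1 that covers counting error only. Means were 54.7 ± 21.1 CPM in TAM (SD, n = 3), against 5.04 ± 2.02 CPM in BMDM_T and 34.7 ± 5.61 CPM in BMDM_H (SD, n = 4 each).

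The Thbs1 fall in BMDM_T was a log2 difference of -2.78 ± 0.35 SE from BMDM_H (95% interval -3.52 to -2.05, edgeR adjusted p = 3.52e-05). In all, 0.253% of all genes tested had a more negative value in that comparison. BMDM_T was lower at each of the 4 replicate numbers. TAM exceeded BMDM_T by 3.39 ± 0.33 SE on the log2 scale (edgeR adjusted p = 2.50e-08). Against BMDM_H the TAM level was 1.52-fold higher, a log2 difference of 0.60 ± 0.26 SE with a 95% interval of 0.07 to 1.14 before adjustment, and it was not called (edgeR adjusted p = 0.0520). That last result sits at the threshold, and over 20 alternative settings its adjusted p ran from 0.0242 to 0.396. It passed without TAM replicate 2 (0.0242), TAM replicate 3 (0.0337), BMDM_H replicate 1 (0.0498) or BMDM_T replicate 2 (0.0494), each an edgeR adjusted p. By level, Thbs1 thus ran TAM, BMDM_H, BMDM_T, with the upper pair not separated beyond the test.

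Fn1, whose product cells assemble into fibrils through integrins, had 1238, 868 and 847 CPM in TAM, against 165, 170, 103 and 126 CPM in BMDM_T and 273, 413, 210 and 193 CPM in BMDM_H. The 3 groups did not overlap, although the lowest BMDM_H library was near the highest of BMDM_T. Means were 984 ± 220 CPM in TAM (SD, n = 3), against 141 ± 32.0 CPM in BMDM_T and 272 ± 100 CPM in BMDM_H (SD, n = 4 each). TAM exceeded BMDM_T by 2.80 ± 0.24 SE on the log2 scale (edgeR adjusted p = 4.97e-09) and BMDM_H by 1.83 ± 0.24 SE, or 3.55-fold (edgeR adjusted p = 1.62e-06). The fall in BMDM_T was a log2 difference of -0.97 ± 0.23 SE from BMDM_H (95% interval -1.45 to -0.49, edgeR adjusted p = 0.0152), at each of the 4 replicate numbers. Of all genes tested 5.2% had BMDM_T libraries all below those of BMDM_H, as Thbs1 and Fn1 did. The Fn1 call rests on single libraries, since it was lost without BMDM_H replicate 2 (-0.69, edgeR adjusted p = 0.0931) and without BMDM_T replicate 3 (-0.85, edgeR adjusted p = 0.0613).

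**Figure D3:**
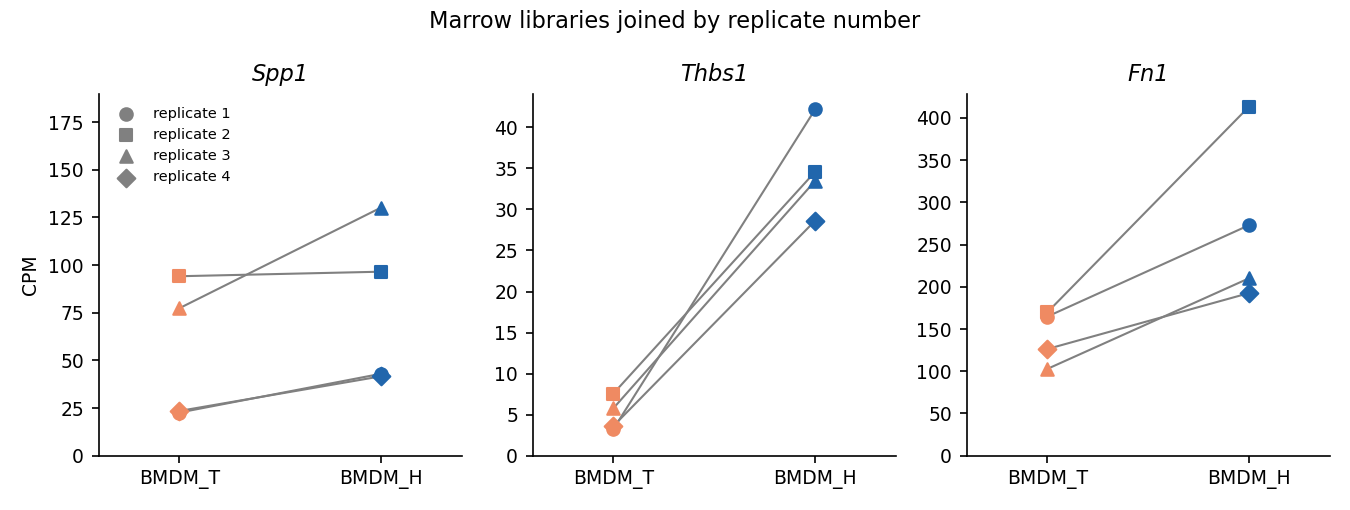
CPM (linear axis from 0) of Spp1, Thbs1 and Fn1 in BMDM_T and BMDM_H, with lines joining libraries of the same replicate number. All 3 genes are lower in BMDM_T at all 4 numbers, and Spp1 replicate numbers 2 and 3 stand above 1 and 4 in both groups.

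Spon1, best known in the nervous system, where F-spondin binds the amyloid precursor protein, had 35.0, 41.4 and 44.2 CPM in TAM, from 63, 78 and 171 counts. BMDM_T had 1 count in all, in replicate 3 (1.15 CPM), and BMDM_H had 0 counts in all 4 libraries. Spon1 was thus counted in every TAM library and nearly absent from marrow, where a count of 0 still allows up to 2.52 to 3.23 CPM in the other BMDM_T libraries and 2.39 to 7.81 CPM in the BMDM_H libraries (3 counts). The TAM mean was 40.2 ± 4.71 CPM (SD, n = 3). The ratio of counts summed over the groups, scaled for depth, was 169 for TAM over BMDM_T, with a 95% exact counting interval of 30.1 to 6700. Against BMDM_H, whose 0 counts were set to 3 for the whole group, the ratio was 47.1. The 95% exact counting interval for that comparison starts at 38.1, a lower limit that covers counting error in the pooled counts and not the spread between libraries. Both comparisons were called (edgeR adjusted p = 7.27e-09 against BMDM_T and 1.41e-08 against BMDM_H). Spon1 passed the filter on low counts only through TAM, so a higher call there was nearly fixed once it was tested. These p-values thus add little to the counts themselves. No fold is given between the marrow groups, both at or under the floor (edgeR adjusted p = 0.623).

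**Figure D4:**
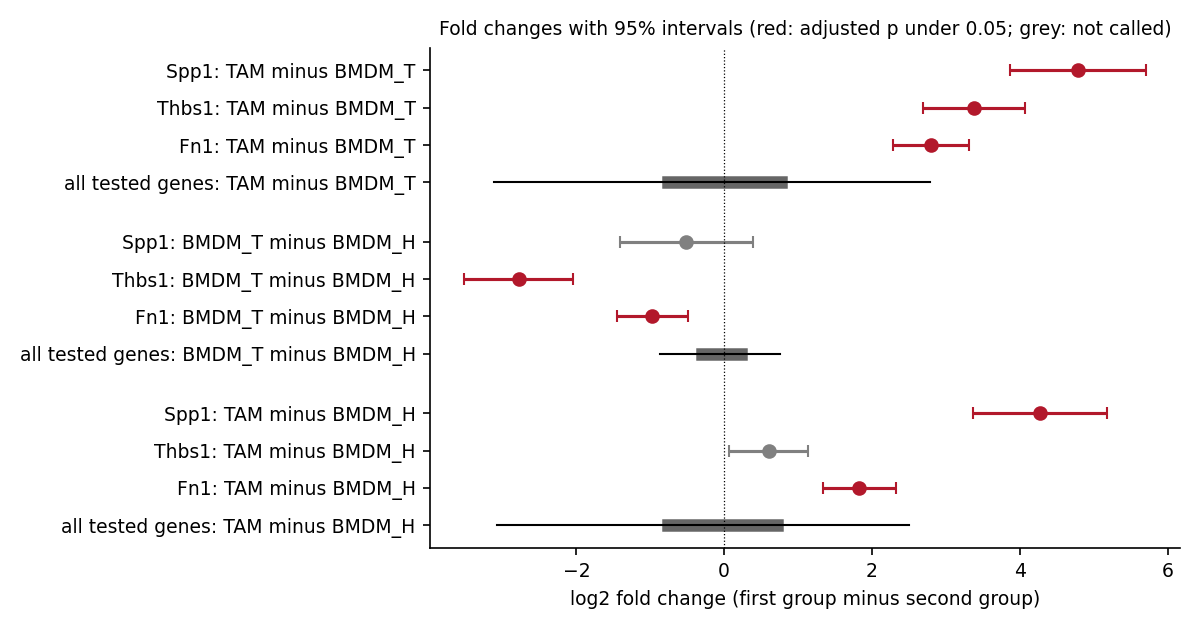
Log2 fold changes of Spp1, Thbs1 and Fn1 in the 3 comparisons (points, with 95% intervals before adjustment) beside all 7518 genes tested (thick bar, middle 50%; thin line, 5th to 95th percentile). Spon1 is left out because of its marrow counts of 1 and 0. Thbs1 and Fn1 lie to the left of 0 in BMDM_T minus BMDM_H, at -2.78 and -0.97.

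Within TAM, replicate 1 was highest for Spp1, Thbs1 and Fn1 and lowest for Spon1. It was also highest for the cross-linking factor gene F13a1 (133 CPM, against 72.7 and 28.4 CPM in the other TAM libraries) and for Pf4, a chemokine gene of platelets and some macrophages (883 CPM, against 460 and 385 CPM). F13a1 and Pf4 were singled out here after their values were seen. Platelets carry thrombospondin-1 and fibronectin, so their other markers were examined. Itga2b, the platelet integrin chain, had 1.82 ± 1.81 CPM in TAM (SD, n = 3), against 23.1 ± 5.43 CPM in BMDM_T and 28.8 ± 17.3 CPM in BMDM_H (SD, n = 4 each). Ppbp, another platelet chemokine gene, had 0.543 CPM in TAM, against 5.20 CPM in BMDM_T and 7.80 CPM in BMDM_H. Of 4 tested markers of megakaryocytes and platelets, Pf4 was higher in TAM than in BMDM_T and the other 3 (Itga2b, Gp1bb and Ppbp) were lower. The Ppbp call was lost in 5 of 20 alternatives, with DESeq2 (adjusted p = 0.203), with limma-voom (0.354), without TAM replicate 2 (edgeR adjusted p = 0.0863), without TAM replicate 3 (0.0969) and without BMDM_H replicates 3 and 4 together (0.0529). Of the 12 listed, 9 were matched, summing to 395 to 893 CPM in TAM, 66.8 to 120 CPM in BMDM_T and 44.6 to 166 CPM in BMDM_H. Nearly all of the TAM sum was Pf4, with a mean of 576 CPM of a mean sum of 585 CPM. In marrow Pf4 had 38.3 CPM of 88.8 CPM in BMDM_T and 49.2 CPM of 120 CPM in BMDM_H.

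Fibroblasts, tumor cells and endothelium are other known sources of such matrix proteins. The 5 fibroblast markers matched, of 12 listed, summed to 11.6 to 35.0 CPM in TAM, 8.40 to 18.0 CPM in BMDM_T and 5.63 to 54.6 CPM in BMDM_H. None of the 3 tested was called in any of the 3 comparisons with edgeR, DESeq2 or limma-voom, and at an unadjusted p under 0.05 edgeR gave 1, Col1a2 in BMDM_T against BMDM_H (lower in BMDM_T). Col3a1, a collagen gene of fibroblasts, had 1.50 CPM in TAM, 0.269 CPM in BMDM_T and 0 in every BMDM_H library. Of 10 tumor epithelium markers 8 were matched, summing to 77.8 to 117 CPM in TAM, 21.5 to 46.2 CPM in BMDM_T and 33.4 to 80.7 CPM in BMDM_H. The keratin gene Krt18 was higher in TAM than in BMDM_T, at 51.9 ± 14.8 CPM (SD, n = 3) against 11.2 ± 8.57 CPM (SD, n = 4). Against BMDM_H, Krt18 and the cadherin gene Cdh1 were higher in TAM (2 of 3 tested, 0 lower), with overlapping libraries. The calls were lost in 4 alternatives for Krt18 and 1 for Cdh1. Mean CPM in TAM, BMDM_T and BMDM_H was 12.4, 5.56 and 4.25 for Cdh1 and 12.0, 3.66 and 4.06 for Krt8. Epcam, the epithelial adhesion gene, had 1.94 CPM in TAM, 2.31 CPM in BMDM_T and 2.83 CPM in BMDM_H. The TAM means of Cldn4 and Krt7 were also not above those in BMDM_H, while those of Krt14 and Krt19 were. The 4 endothelium markers matched, of 8 listed, summed to 61.0 to 92.8 CPM in TAM, 29.8 to 43.7 CPM in BMDM_T and 15.6 to 29.8 CPM in BMDM_H. The 1 tested, Pecam1, an adhesion gene that leukocytes express too, was higher in TAM, 2.61-fold over BMDM_T and 4.65-fold over BMDM_H. Kdr, a VEGF receptor gene, had 7.18 CPM in TAM, 1.01 CPM in BMDM_T and 0.664 CPM in BMDM_H, while Tie1, an endothelial receptor gene, had 1.50 CPM in TAM, 3.53 CPM in BMDM_T and 3.97 CPM in BMDM_H. The part of these cells in the TAM values was not tested.

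Response genes to tissue dissociation also moved with TAM. Of 16 tested, 10 were higher and 3 lower in TAM than in BMDM_T, against 30.1% and 28.7% of all genes tested. Atf3 had 940 ± 201 CPM in TAM (SD, n = 3) against 35.8 ± 17.6 CPM in BMDM_T (SD, n = 4). Between the marrow groups, treated alike, 4 were lower and 1 higher in BMDM_T, against 2% and 2.82% of all genes tested. Among the 4, Atf3 fell by 1.84 on the log2 scale and Nr4a1, an immediate early nuclear receptor gene, by 1.83. The count of lower genes was 2 without BMDM_T replicate 1 or 4 or BMDM_H replicate 2 or 3, since Fos and Fosb, genes of AP-1 factors, then lost their calls. The higher gene, Ier3, lost its call without BMDM_T replicate 3 or BMDM_H replicate 1 or 2. Their part in the values of the 4 matrix genes was not tested.

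Some marker lists of other cells had members lower in BMDM_T than in BMDM_H, as Thbs1 and Fn1 were, and others did not. Over all genes tested 2% were lower and 2.82% higher. Neutrophil markers were higher for 3 of 10 and lower for 0. Mast cell, eosinophil and B cell markers were higher for 1 of 6 and lower for 0. No tested marker of fibroblasts, tumor epithelium, endothelium, megakaryocytes and platelets, or bone cells was called there. Monocyte markers were lower for 5 of 8 and higher for 0, with the chemokine receptor Ccr2 at a log2 difference of -1.11 and the fractalkine receptor Cx3cr1 at -1.72. Nr4a1 is among these 5 and also among the dissociation response genes above, so the 2 counts share it. Ly6c2, another of the 5, lost its call in 5 of 20 alternatives (edgeR adjusted p = 0.0722 to 0.153). Of 8 tested markers of marrow-resident macrophages 5 were lower and 0 higher, including the adhesion gene Vcam1 (-1.84). Their list summed to 202 to 278 CPM in BMDM_T, against 392 to 721 CPM in BMDM_H, without overlap. Red cell precursor markers were lower for 7 of 7 tested, summing to 8.12 to 21.9 CPM in BMDM_T against 63.7 to 307 CPM in BMDM_H. Without BMDM_H replicate 2, 3 or 4 only 3 of these genes passed the filter on low counts, and all 3 were lower. Several of the 7 could pass that filter only through BMDM_H. Slc4a1, for example, had 0 CPM in TAM and 0.269 CPM in BMDM_T against 31.2 CPM in BMDM_H. A lower call in BMDM_T was nearly fixed in advance for such genes. Of 11 macrophage markers 4 were lower and 0 higher, and 2 were lower without BMDM_H replicate 4. One of the 4, Adgre1, the F4/80 gene, lost its call in 12 of 20 alternatives, among them with the replicate number as a block (edgeR adjusted p = 0.0506), where 3 were lower. The part of these cell types in the lower Thbs1 and Fn1 was not tested.

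Other matrix glycoproteins gave fewer measurements. Of 31 listed, 12 were matched and 9 tested. In TAM 5 were higher and 0 lower than in BMDM_T, against 30.1% and 28.7% of all genes tested. The median log2 fold change was 1.28, against 0.03 over all genes. Ecm1, a secreted matrix glycoprotein gene, had 161 ± 63.5 CPM in TAM (SD, n = 3) and 14.8 ± 3.07 CPM in BMDM_T (SD, n = 4), or 10.8-fold. Mfge8, a bridge between dying cells and phagocytes, was 9.10-fold higher and the galectin gene Lgals1 3.65-fold higher. Tgfbi, a TGF-beta-induced integrin ligand, had 1322 ± 194 CPM in TAM (SD, n = 3), 444 ± 64.8 CPM in BMDM_T and 271 ± 48.2 CPM in BMDM_H (SD, n = 4 each). It was the only one of the 9 called between the marrow groups, 1.62-fold higher in BMDM_T (edgeR adjusted p = 0.0203), opposite in sign to Thbs1 and Fn1. That call was lost in 5 of 20 alternatives, among them with scaling by totals alone (0.0563) and without BMDM_T replicate 2 (0.0668), BMDM_H replicate 3 (0.0577) or BMDM_H replicate 4 (0.0637), each an edgeR adjusted p. Against BMDM_H, TAM had 4 higher and 0 lower of the 9, where 28% and 28.3% of all genes tested were higher and lower.

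Receptors of the 4 proteins moved in both directions between TAM and BMDM_T. Of 22 listed, 20 were matched and 17 tested, with 12 higher and 4 lower in TAM and a median log2 fold change of 1.81. Over all genes tested 30.1% were higher and 28.7% lower, so a lower call is common there. Itgb5, the β chain of a vitronectin and osteopontin receptor, had 662 ± 185 CPM in TAM (SD, n = 3) against 41.7 ± 6.52 CPM in BMDM_T (SD, n = 4), or 15.8-fold. Its partner chain Itgav was 6.10-fold higher. Itga9, which binds thrombin-cut osteopontin, had 359 counts over TAM and 2 over BMDM_T. Itga9 passed the filter on low counts only through TAM, so a higher call was nearly fixed once it was tested. Sdc3, a heparan sulfate proteoglycan gene, was 18.7-fold higher and the endocytic receptor gene Lrp1, which clears thrombospondin-1, 4.63-fold higher. App, whose product binds F-spondin, was 2.75-fold higher.

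The 4 receptors that were lower in TAM were Itgb3, Cd47, Cd44 and Itga4. Itgb3, the alternative β partner of the αv chain and also the partner of platelet Itga2b, had 1.45 ± 1.26 CPM in TAM (SD, n = 3) against 33.4 ± 4.09 CPM in BMDM_T (SD, n = 4), 28.1-fold lower. Cd47, a receptor of thrombospondin-1, was 2.38-fold lower, at 174 ± 11.1 CPM in TAM against 415 ± 108 CPM in BMDM_T. Cd44, an osteopontin receptor, was 1.94-fold lower, with overlapping libraries (edgeR adjusted p = 0.0110, but 0.0538 without TAM replicate 3 and 0.140 after thinning to equal depth). The integrin gene Itga4 was 1.81-fold lower (edgeR adjusted p = 0.0286) and lost its call in 7 of 20 alternatives, among them without BMDM_T replicate 1, 2 or 4 and without TAM replicate 1 or 3 (0.0508 to 0.0795). Without TAM replicate 3 the count of lower receptors was therefore 2.

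Between the marrow groups 3 of the 17 receptors passed, against 4.82% of all genes tested. The median log2 difference of the 17 was -0.30, against -0.01 over all genes. Sdc3 was 2.98-fold lower in BMDM_T, at 38.0 ± 11.8 CPM against 117 ± 44.1 CPM in BMDM_H (SD, n = 4 each; edgeR adjusted p = 0.00134). Lrp1 was 1.51-fold lower (edgeR adjusted p = 0.0449), and in 11 of 20 alternatives that call was lost, among them without BMDM_T replicate 1, 2 or 3, BMDM_H replicate 1, 2 or 4, or TAM replicate 2 (0.0694 to 0.175). Calr, a chaperone gene whose surface protein joins LRP1 in binding thrombospondin-1, was 1.65-fold higher (edgeR adjusted p = 0.0139), and lost its call in 4 of the 20, among them without BMDM_H replicate 1 (0.0538) or 3 (0.0544). Cd44 and Cd47 had log2 differences of 0.37 and 0.58 and did not pass. TAM against BMDM_H gave 11 higher and 2 lower of 17, where 28% and 28.3% of all genes tested were higher and lower.

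Enzymes that cut, cross-link or modify the 4 proteins moved in both directions between TAM and BMDM_T. Of 23 listed with such roles or as partners, 20 were matched and 17 tested. In TAM 11 were higher and 4 lower than in BMDM_T, against 30.1% and 28.7% of all genes tested. The median log2 fold change was 2.01. Tgm2, a transglutaminase gene whose product cross-links fibronectin and osteopontin, had 1174 ± 148 CPM in TAM (SD, n = 3) against 15.6 ± 6.19 CPM in BMDM_T (SD, n = 4), or 74.8-fold. The membrane metalloproteinase gene Mmp14 was 48.2-fold higher, Acp5, whose phosphatase acts on osteopontin, 25.6-fold higher, and the cathepsin gene Ctsl 10.2-fold higher. The 4 lower in TAM were Mmp9, Elane, Ctsg and F13a1. Mmp9, a gelatinase gene, had 29.8 ± 16.4 CPM in TAM against 2582 ± 721 CPM in BMDM_T. Elane and Ctsg, serine protease genes of granules, had 0.802 and 0.707 CPM in TAM against 432 and 530 CPM in BMDM_T. F13a1, the transglutaminase chain of factor XIII, was 3.01-fold lower.

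Between the marrow groups 5 of the 17 enzymes and partners were higher in BMDM_T and 0 lower, against 2.82% and 2% of all genes tested. Fam20c, the kinase gene whose product phosphorylates secreted proteins such as osteopontin, had 85.1, 31.1, 62.3 and 47.8 CPM in BMDM_T against 8.75, 6.43, 1.86 and 5.20 CPM in BMDM_H. Every BMDM_T library stood above every BMDM_H library, as for 5.99% of all genes tested, an 8.73-fold difference (edgeR adjusted p = 2.50e-05), and TAM had 99.5, 82.2 and 63.3 CPM. Mmp9 was 2.23-fold higher, the cathepsin gene Ctsd 2.21-fold higher, Elane 3.01-fold higher and Ctsg 3.23-fold higher in BMDM_T. Elane is also a neutrophil marker, and 3 of the 10 neutrophil markers (Elane, Mpo and Cd177) were higher there and 0 lower. The Cd177 call (edgeR adjusted p = 0.0497) was lost in 12 of 20 alternatives (0.0611 to 0.265). Against BMDM_H, TAM had 13 higher and 4 lower of 17, where 28% and 28.3% of all genes tested were higher and lower.

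**Figure D5:**
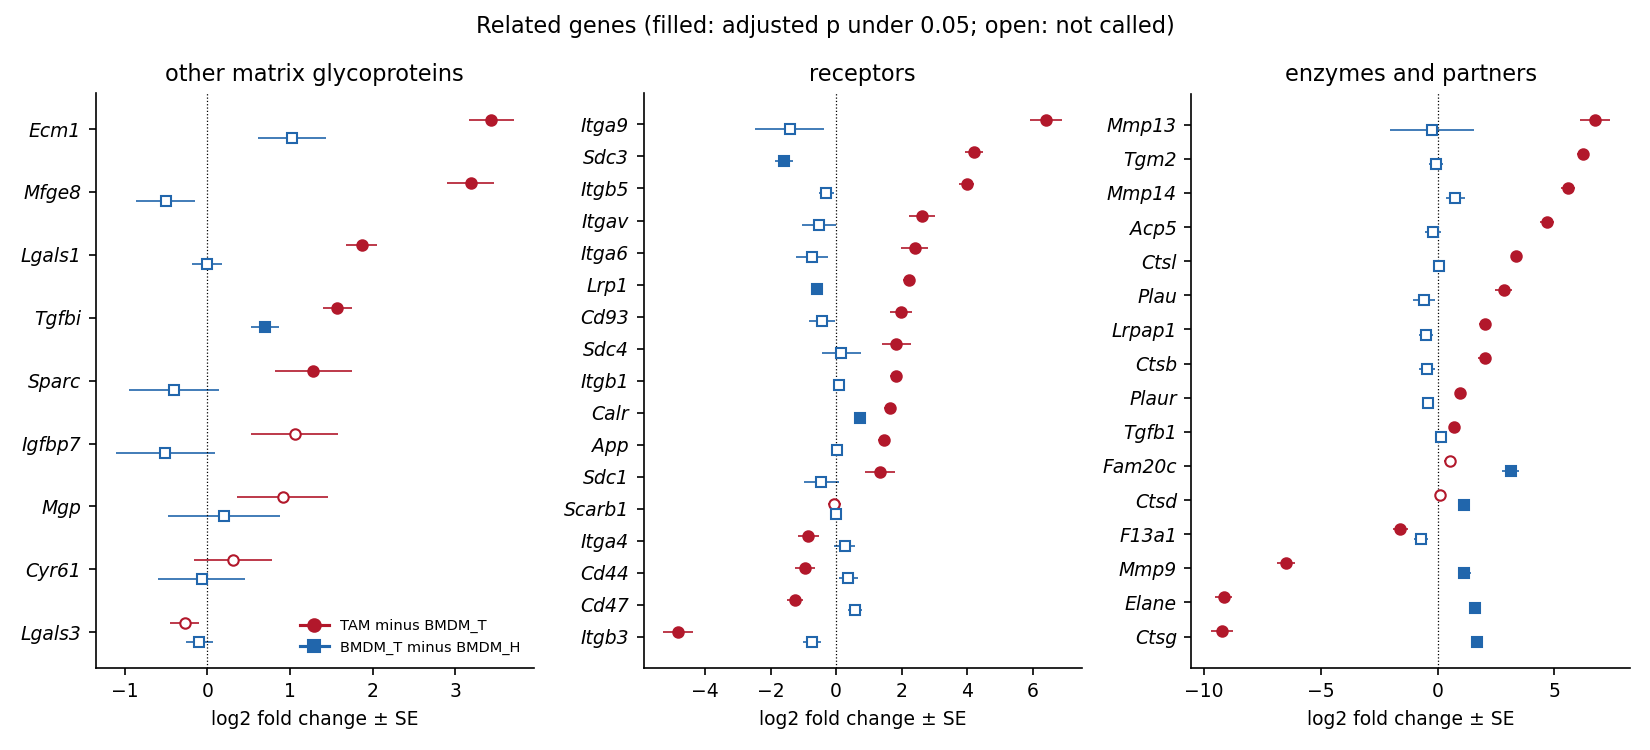
Log2 fold change ± SE of the tested matrix glycoproteins, receptors, and enzymes and partners, in TAM minus BMDM_T (circles) and BMDM_T minus BMDM_H (squares), filled where called. Of the 17 enzymes and partners tested, 1 is not drawn. Tgm2 and Mmp14 lie far to the right and Elane and Ctsg far to the left in TAM minus BMDM_T, while Fam20c and Sdc3 lie apart from 0 in BMDM_T minus BMDM_H.

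Genes with the most similar pattern were ranked by Pearson's r of log2 CPM over the 11 libraries among 7298 genes. The libraries fall into groups, so r mainly reflects group levels, and it is given as a description. For Thbs1 they were Ifi44l (r = 0.976), an interferon-induced gene, Cyp27a1 (0.930), a sterol hydroxylase gene, Slc25a26 (0.922), a mitochondrial carrier gene, and Nr4a1 (0.919). Only 11 genes had r above 0.9 with Thbs1, against 411 with Spp1, 238 with Fn1 and 597 with Spon1. Ifi44l had 77.1 ± 6.80 CPM in TAM (SD, n = 3), 12.9 ± 2.24 CPM in BMDM_T and 50.6 ± 10.5 CPM in BMDM_H (SD, n = 4 each), the same order of groups as Thbs1. For Spp1 the nearest were the signaling regulator Rgs1 (0.980), Scamp5 (0.978), the AP-1 factor gene Fosl2 (0.978) and Bzw2 (0.977). For Fn1 they included Cln8 (0.970), the macrophage gene Cd68 (0.966) and Dnajc16 (0.965). For Spon1 they were the lysosomal phospholipase gene Pla2g15 (0.992), Grasp (0.991), Tgm2 (0.990) and the apolipoprotein gene Apoe (0.989).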

How the data were processed

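The authors deposited raw counts per gene as 1 table with 24421 rows. The tools named are bcl2fastq, HTSeq and STAR 2.4.2a, and the build mm10, per the submitters' processing notes. The annotation, the strand setting and any collapsing of molecular identifiers are not given in those sources. Per the labels' protocols, the libraries are 3'-end mRNA libraries, so counts do not scale with gene length. The 14214 rows without a symbol hold no count of batch 1. Spearman correlations between batch 1 and batch 2 libraries over rows with a symbol were -0.02 to 0, against 0.92 to 0.96 within BMDM_H of batch 1, so batch 2 (6 libraries) was left out.

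All 11 libraries were fitted together with edgeR 4.0.16 in R 4.3.3 (filterByExpr, TMM, glmQLFit, glmQLFTest). A gene was called at a p-value under 0.05 after Benjamini-Hochberg adjustment over 7518 genes. CPM uses TMM-scaled totals of the 7518 genes that passed the filter on low counts. SE was derived from the log2 fold change and F. The procedure was tested on simulated data in which far fewer genes changed than were called in the TAM comparisons. Scaling and calls under such wide change were therefore not examined there. The members and 16 related gene lists (206 entries, 157 matched) were chosen with earlier results of these data known. Named list genes are, per list, comparison and direction, up to 4 called genes with the smallest p and at least 10 counts in the higher group, with the defining markers and sort antigens. Some other list members are named as examples, chosen after their values were seen. For likeness, the 4 genes with the highest r per member are named (prior count 2). Some genes that meet these rules are not reported here.

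Replicates differed beyond sampling noise in all 15 pairs (chi-square per degree of freedom 2.67 to 14.6). Same-numbered BMDM_T and BMDM_H libraries deviated together (r = 0.22, 0.24, 0.13 and 0.13 across genes), which meets the limit for pairing, although the labels do not say what a number shares. The numbers were used as a block in an alternative. Other alternatives were DESeq2 1.42.0, limma-voom (limma 3.58.1), other scalings and filters, equal depth, 2 groups only, and libraries left out. Poisson and ratio intervals and floors cover counting error only.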

Additional observations from a re-analysis of the deposited data

Results flagged for a closer look

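Spon1 in BMDM_T was picked out because 1 of its 4 libraries stood apart, with 1 count in replicate 3 and 0 in the others. The gap of that library to the rest, divided by the group's range, was 1, above Dixon's 95% critical value for 4 samples. With counts of 0, 0, 0 and 1 that ratio is 1 by construction, so it carries no information beyond the single count. No library of Spp1, Thbs1 or Fn1 in BMDM_T or BMDM_H stood apart in this way, and TAM, with 3 libraries, was not examined.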

How the results depend on the processing

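With the replicate number as a block, BMDM_T against BMDM_H gave 468 calls, against 362 without it, Thbs1 had a log2 difference of -2.71, Fn1 -0.94 (edgeR adjusted p = 0.00306) and Spp1 -0.47 (0.560), and no call of the 4 genes changed. Spp1, Thbs1, Fn1 and Spon1 kept their call over BMDM_T in TAM in all 20 alternatives, as did Thbs1 in BMDM_T against BMDM_H and Spp1, Fn1 and Spon1 in TAM against BMDM_H. Thbs1 in TAM against BMDM_H passed with DESeq2 size factors (0.62, adjusted p = 0.0463) and with totals alone (0.64, 0.0407), and with 1 library left out ran from 0.26 to 0.77. Fn1 in BMDM_T against BMDM_H ran from -1.09 to -0.69 with 1 library left out. Spon1 in BMDM_T against BMDM_H turned to -0.033 with limma-voom (adjusted p = 0.989), a sign that rests on 1 count. Thinning every library to the lowest total gave 2716 calls for TAM against BMDM_T and 2653 for TAM against BMDM_H, with fewer genes tested (5164). BMDM_T against BMDM_H had 179 calls without BMDM_H replicates 3 and 4 together, 238 without BMDM_H replicate 2, and 238 to 409 with any 1 library left out, TAM against BMDM_T 4107 to 4450 and TAM against BMDM_H 3815 to 4297. Scaling by totals alone moved the median log2 change of all genes by more than 0.1, to 0.18 in TAM against BMDM_T and -0.12 in BMDM_T against BMDM_H, and BMDM_T against BMDM_H then had 155 higher and 218 lower genes, against 212 and 150. The counts of Thbs1 in BMDM_T (21 in all) and of Spon1 in marrow limit the size of their folds.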

Other observations

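Marrow libraries of replicates 2 and 3 differed from 1 and 4 in more genes than Spp1, and the genes here were chosen after their values were seen. Hspa1b, a heat shock gene, had 19.3 and 18.5 CPM in BMDM_T replicates 2 and 3 against 5.38 and 3.61 CPM in 1 and 4, and 15.3 and 16.7 CPM in BMDM_H replicates 2 and 3 against 5.57 and 10.4 CPM in 1 and 4. Col1a1, the collagen gene of fibroblasts and osteoblasts, ran the other way, with 0 CPM in BMDM_T replicates 2 and 3 against 6.46 and 9.92 CPM in 1 and 4, and with 0.804 and 0 CPM in BMDM_H replicates 2 and 3 against 19.1 and 23.4 CPM in 1 and 4. The libraries with more Spp1 were thus those with less Col1a1 in both marrow groups, but on few counts. Col1a1 had 17 counts over BMDM_T and 34 over BMDM_H, and Hspa1b had 48 and 39. A count of 0 still allows up to 5.58 CPM in BMDM_H replicate 3 (3 counts). The share of all genes with such a split is not given, so no relation of Spp1 to Col1a1 can be drawn from it. What the replicate numbers share is not given, and no test was made of this split.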
